A study of Caenorhabditis elegans with 2 samples.

Results

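Peaks of the zinc-finger protein ZTF-7 that lay between divergent coding promoters on the autosomes of the nematode Caenorhabditis elegans are described here. In a divergent pair, a gene on the minus strand and a gene on the plus strand point away from each other and share the DNA between their 5′ ends. A peak was a member if its summit lay within 1000 bp of both 5′ ends of such a pair of protein-coding genes, with the minus-strand end on the left. The rule used positions only and no signal value. It found 226 peaks, which were 23.3% (exact 95% binomial interval 20.7 to 26.1) of the 968 autosomal peaks and 17.2% of all 1311 peaks past the reproducibility threshold. Of the other autosomal peaks, 443 were near coding 5′ ends without such a pair (one-sided promoters) and 299 lay farther than 1000 bp from any coding 5′ end (distal). All intervals in the text cover counting error only.

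Divergent promoters are common in compact genomes. Both genes are transcribed outward from a shared nucleosome-poor stretch, and a factor bound there can be close to the start of either gene. A peak in such a gap does not show by its position which gene, if any, the bound protein acts on. In C. elegans many mature mRNAs receive a spliced leader, so an annotated 5′ end is often the trans-splice site and transcription itself starts upstream of it, inside the gap.

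The peaks came from chromatin immunoprecipitation (ChIP-seq), which enriches the genomic fragments that the tagged protein occupies before sequencing, in 2 biological replicates of 1 group. The worms were strain OP332, genotype unc-119(tm4063) III; wgIs332, which carries an integrated transgene of eGFP-tagged ZTF-7, and were whole L4 larvae of mixed sex with no age given. Whole animals mix all tissues, and no control sample was analysed here, so conditions could not be compared. The peaks are those of the authors' irreproducible discovery rate (IDR) list, signal is the peak caller's own value for each peak, and the number of reads is unknown. Coordinates are of build ce11 (WBcel235), counted from 1.

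The sequences at the 5 strongest members that recurred in both replicates are shown because they are the bases under the highest signals. Each is the reference sequence of the plus strand around the summit, at most 300 bases, trimmed to the bases between both 5′ ends so that no annotated base of either gene is included. Capitals mark 2 runs that were shared between printed sequences and, in the rpl-20/Y17G9B.5 sequence, also 1 recurring word described further on. The regions are chrV:4042022-4042180, chrV:16395305-16395505, chrIV:13240652-13240826, chrIV:4749915-4750214 and chrIV:12391189-12391488, in that order.
C49G7.10/irg-2: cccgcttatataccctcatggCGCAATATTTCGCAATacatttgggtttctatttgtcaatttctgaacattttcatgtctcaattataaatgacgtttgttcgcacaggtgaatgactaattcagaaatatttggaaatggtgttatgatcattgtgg
F13A7.11/F13A7.12: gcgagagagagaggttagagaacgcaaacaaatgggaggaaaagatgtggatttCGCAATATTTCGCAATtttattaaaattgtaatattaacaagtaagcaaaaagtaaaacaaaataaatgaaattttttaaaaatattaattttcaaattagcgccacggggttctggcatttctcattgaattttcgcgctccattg
rpl-12/lin-54: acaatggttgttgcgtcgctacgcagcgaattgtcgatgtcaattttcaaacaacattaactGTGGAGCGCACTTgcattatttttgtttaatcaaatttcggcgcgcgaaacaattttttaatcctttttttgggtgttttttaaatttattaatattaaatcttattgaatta
rpl-20/Y17G9B.5: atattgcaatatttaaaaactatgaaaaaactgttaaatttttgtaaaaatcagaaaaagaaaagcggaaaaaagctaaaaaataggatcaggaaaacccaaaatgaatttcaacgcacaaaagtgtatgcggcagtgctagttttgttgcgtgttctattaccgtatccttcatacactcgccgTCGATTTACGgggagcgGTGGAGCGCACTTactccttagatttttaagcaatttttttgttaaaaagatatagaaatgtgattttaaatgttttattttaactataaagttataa
rps-23/dpm-3: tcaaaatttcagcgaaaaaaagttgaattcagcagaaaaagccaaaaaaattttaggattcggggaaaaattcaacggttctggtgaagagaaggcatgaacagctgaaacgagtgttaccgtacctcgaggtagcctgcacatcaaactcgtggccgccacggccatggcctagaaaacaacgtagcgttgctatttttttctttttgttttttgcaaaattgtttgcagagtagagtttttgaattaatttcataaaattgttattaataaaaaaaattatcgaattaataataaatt

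The 16-base run CGCAATATTTCGCAAT stood in the same orientation in both chromosome V sequences, by C49G7.10/irg-2 and by F13A7.11/F13A7.12, the 2 members of highest signal. On either strand it occurred 6 times on the autosomes, in the 300-base windows of 2 members, 1 one-sided peak and 0 distal peaks. The 13-base run GTGGAGCGCACTT stood in both ribosomal protein sequences by rpl-12 and rpl-20. It occurred 85 times on the autosomes, in the windows of 3 members and of no one-sided or distal peak. The rps-23/dpm-3 sequence shared no run of 12 or more bases with the others. Runs were looked for only among these 5 sequences, and a shared run is a description of the letters, not a binding site.

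The strongest member had a signal of 408 and ranked 22 in the IDR list. It lay on chromosome V from 4041912 to 4042429, between C49G7.10 and irg-2, an infection response gene, in a gap of 160 bp. Its summit was 51 bp from the C49G7.10 end and 109 bp from the irg-2 end. It ranked 26 of 30000 regions in replicate 1, with a signal of 119, and 22 in replicate 2, with a signal of 315. Replicate signals are on different scales, so replicates are compared by rank. Both replicates placed this peak among their strongest regions.

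The F13A7.11/F13A7.12 peak, also on chromosome V, had a signal of 315 and ranked 44 in replicate 1 and 28 in replicate 2. Its gap was 735 bp, with the summit 52 bp from the F13A7.11 end. The rpl-12/lin-54 peak had a signal of 265 and ranked 21 and 64. Its summit was 26 bp from the end of rpl-12, a protein of the large ribosomal subunit, and 367 bp from the end of lin-54, a DNA-binding subunit of the DREAM complex, which represses cell cycle genes. Both summits stood close to the minus-strand end of their pair. The rpl-20/Y17G9B.5 peak had a signal of 226 and ranked 58 and 53. The rps-23/dpm-3 peak, shared by a small-subunit protein gene and the gene of a dolichol-phosphate mannose synthase subunit, had a signal of 215 and ranked 102 and 52. The last 2 summits lay well inside their gaps, at least 175 bp from either end.

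Of the 15 named members, 2 had genes of heme transport, which were grouped after their values were seen. The hrg-4/hrg-6 peak, at positions 11031770 to 11031993 of chromosome IV, had a signal of 193 and ranked 125 in replicate 1 and 59 in replicate 2. hrg-4 encodes a heme importer of the intestine, and hrg-6 is a member of the same family. Their 5′ ends were 1595 bp apart, so this was also a wide gap for a member. The F58E6.8/hrg-3 peak on chromosome V had a signal of 157, ranked 157 and 82, and had its summit 9 bp from the end of hrg-3, which encodes a secreted carrier of heme. The hrg-9/srd-35 peak, with a signal of 205, fell just outside the rule because its summit was 1002 bp from the farther 5′ end.

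The named members after these were mostly pairs with a gene of protein synthesis or folding. The ifet-1/rps-1 peak joined a translational repressor that binds the cap-binding factor to a small-subunit protein, with a signal of 186 and ranks of 160 and 60. The rpl-15/K11H12.8 peak had a signal of 175 and ranks of 77 and 81. The larp-1/wip-1 peak, by an RNA-binding protein of the La-related family and a regulator of actin assembly, had a signal of 164 and ranks of 103 and 87. These 3 peaks were thus among the 160 strongest regions in each replicate. The ska-3/rps-12 peak, with a kinetochore gene on the other side, had a signal of 160 and ranks of 69 and 115. The gmps-1/cap-2 peak, by GMP synthetase and an actin-capping subunit, had a signal of 150.0 and ranks of 165 and 88. Both pairs joined genes of unlike function. The hsp-110/rpn-3 peak, by a chaperone of the Hsp110 family and a proteasome lid subunit, had a signal of 147 and ranks of 235 and 84. The cct-8/Y55F3AR.2 peak, by a subunit of the cytosolic chaperonin, had a signal of 146 and ranks of 132 and 113. Both had a gene of protein folding in the minus-strand position. The remaining one of the 15, R08F11.4/srw-7, with a chemoreceptor gene on the plus strand, had a signal of 213 and ranks of 161 and 42. All 15 summits lay between the 5′ ends, 14 in intergenic sequence and that by ifet-1/rps-1 in an exon of a non-coding gene.

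**Figure D1:**
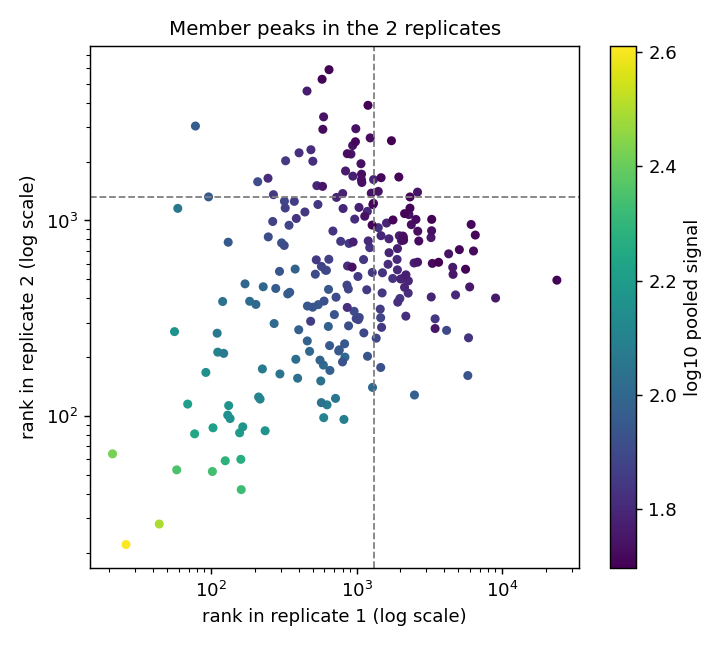
Rank of each member peak among the regions of replicate 1 (x axis, log scale) and of replicate 2 (y axis, log scale), for the 220 members with a region in both, coloured by log10 of the pooled signal. Dashed lines mark rank 1311, and 116 members lie below both.

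Agreement of the replicates over all members was partial. A region overlapped in both replicate lists for 220 of 226 members (97.3%). Among the 1311 strongest regions of each replicate, 116 members were found in both (51.3%, interval 44.6 to 58.0), against a background of 46.5% over all autosomal peaks. The one-sided share was 46.7% and the distal share 42.5%, so the members' interval held the value of the one-sided peaks but not that of the distal ones. Replicate 1 alone held 34 members among its strongest regions, replicate 2 alone held 67, and 9 were in neither. The median rank was 871.5 in replicate 1 and 556.5 in replicate 2, against 744.5 and 880 for distal peaks, so the order of these 2 classes turned between the replicates. Within the 2622 strongest regions of each, 185 members (81.9%) were found in both. Spearman's rho between the replicate signals was 0.26 over the 220 members, 0.23 over 431 one-sided peaks and 0.04 over 294 distal peaks, a description without a test, since all points come from the same libraries. The plot of replicate ranks shows the strongest members close together near the origin and a wide spread at weaker signals.

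In the pooled list, signal in the members was slightly above that of other autosomal peaks at the median, but its single highest value was lower. Their median signal was 69.7 (quartiles 57.0 and 89.8, range 49.8 to 408), against 66.0 for one-sided and 62.7 for distal peaks. Within replicate 2 the order of the medians was the same, at 43.8 for members, 41.1 for one-sided and 37.4 for distal peaks. Within replicate 1 the distal median was the highest, at 30.2, against 28.0 for members and 26.9 for one-sided peaks. The highest one-sided signal in the pooled list was 639 and the highest distal signal 628. A signal above 100 was found in 43 members (19.0%), in 15.8% of one-sided and in 10.7% of distal peaks. Of the 20 strongest autosomal peaks 6 were members, and of the 100 strongest 30. When the 968 autosomal peaks were divided into 4 equal parts by signal, members made up 28.5% of the strongest part (interval 22.9 to 34.6), then 24.4%, 21.1% and 19.4% (14.6 to 25) of the weakest.

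**Figure D2:**
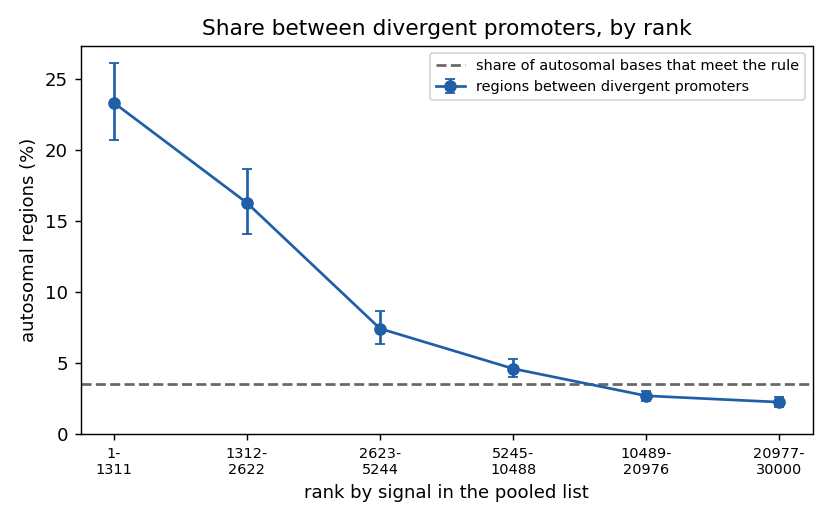
Share of autosomal regions of the pooled list (y axis, percent) that met the divergent promoter rule, by rank of signal in that list (x axis, bins), with exact 95% binomial intervals. The dashed line is the share of autosomal bases that meet the rule, 3.54%, and the shares run from 23.3% in the first bin to 2.27% in the last.

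The same rule applied to the pooled list of 30000 regions gave a share that fell with rank. It was 23.3% of autosomal regions in ranks 1 to 1311, 16.3% in ranks 1312 to 2622 and 7.45% in ranks 2623 to 5244. It was then 4.63%, 2.71% and 2.27% in the last 3 bins, and the last 2 lay below the 3.54% of autosomal bases that met the rule. The share of these regions with the summit between the 5′ ends also went down, from 92.0% to 54.5%, as the plot of shares by rank shows for the first measure. The lists are cut by signal, so the IDR peaks are the first bin.

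Bases that met the rule amounted to 2.92 Mb of the autosomes. Members thus stood at 77.3 peaks per Mb (exact 95% Poisson interval 67.6 to 88.1), against 16.5 (15 to 18.1) at one-sided promoters and 5.66 (5.04 to 6.34) in distal sequence. The intervals did not overlap. Chromosome III had the highest density, 133 peaks per Mb (103 to 169), from 66 members. Chromosome IV had 79.5, chromosome I 75.1, chromosome V 59.0 and chromosome II 53.8, and the intervals of these 4 overlapped one another. The interval of chromosome III overlapped only that of chromosome IV (57.5 to 107).

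Counted over gene pairs, 226 of 2382 adjacent autosomal divergent pairs with 5′ ends at most 2000 bp apart held a summit by the rule, a background of 9.49%. The members had 226 different innermost pairs, so no pair held more than 1 member, and these pairs comprised 452 genes. Chromosome III again stood highest, with 17.1% of its 385 pairs (interval 13.5 to 21.3), against 6.65% to 9.77% on the other autosomes. More than 1 divergent pair met the rule at 17 members, at most 3 pairs, and the innermost one was used. An IDR summit lay within 1000 bp of the 5′ end of 505 of 4764 autosomal coding genes in divergent pairs (10.6%, 9.74 to 11.5), and of 435 of 12478 other autosomal coding genes (3.49%, 3.17 to 3.82). Genes of a pair share summits, so these genes are not independent of each other.

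**Figure D3:**
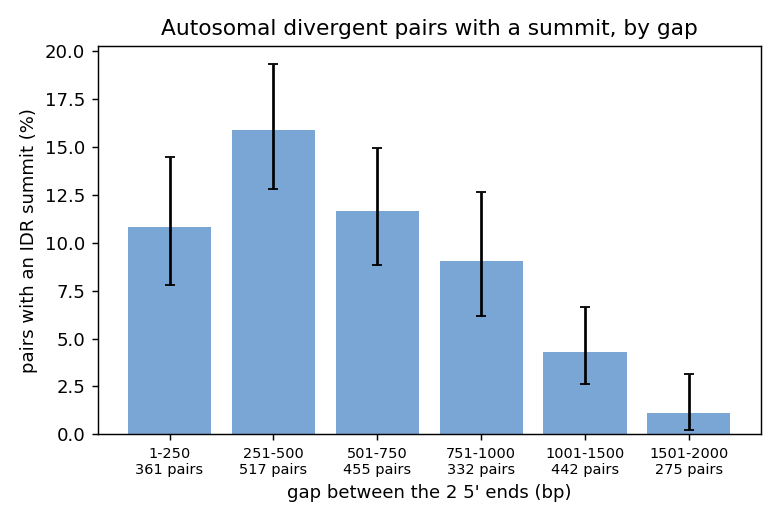
Percent of autosomal divergent pairs with an IDR summit within 1000 bp of both 5′ ends (y axis) by the gap between the ends (x axis, bp, with the number of pairs), with exact 95% binomial intervals. The highest bar is 15.9% in gaps of 251 to 500 bp and the lowest 1.09% in gaps above 1500 bp.

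Gaps of intermediate width held summits most often. A summit was found in 39 of 361 pairs with a gap of at most 250 bp (10.8%), in 82 of 517 with a gap above 250 and up to 500 bp (15.9%, 12.8 to 19.3) and in 53 of 455 up to 750 bp (11.6%). The share was then 9.04% up to 1000 bp, 4.30% up to 1500 bp and 1.09% up to 2000 bp. The rule itself leaves fewer eligible bases in wider gaps, with a median of 1828 bases in the narrowest class and 273 in the widest, and the shares were not corrected for this. The median gap was 474.5 bp for members (quartiles 299.5 and 733.75, range 12 to 1695) and 658 bp for all pairs. A gap of at most 500 bp was found in 53.5% of members and 36.9% of pairs.

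**Figure D4:**
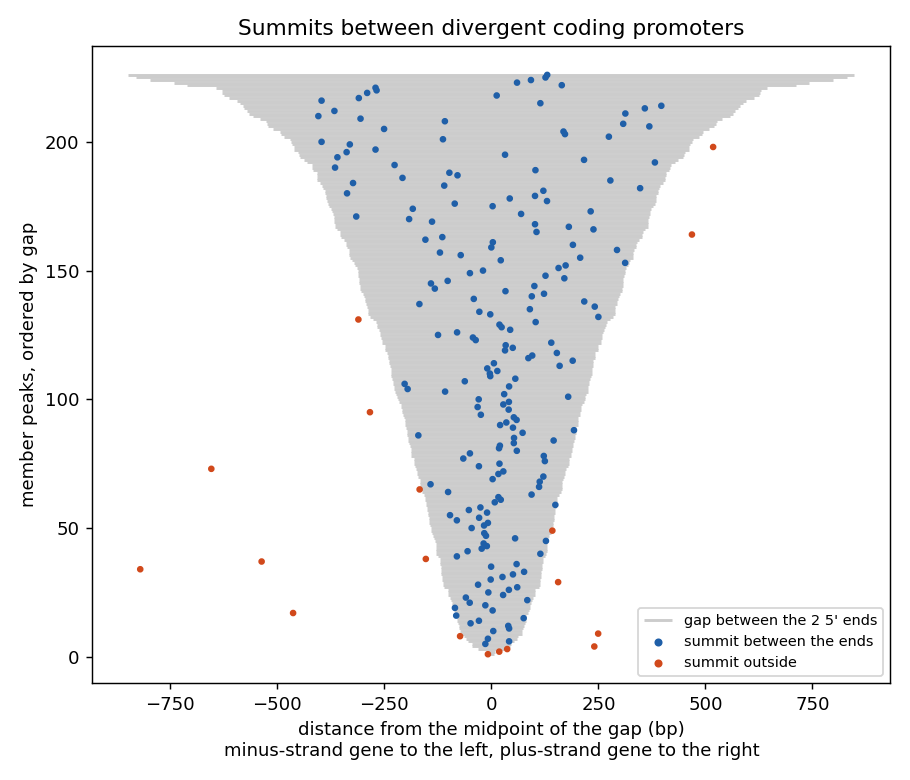
Each row is 1 member, ordered by gap width, with the gap as a grey bar and the summit as a point; the x axis is the distance from the middle of the gap in bp, the minus-strand gene to the left. Blue summits (208) lie between both 5′ ends and orange ones (18) outside.

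Summits lay in the gap rather than beyond it. In 208 of 226 members (92.0%, 87.7 to 95.2) the summit was between both 5′ ends, where the rule would also have admitted positions past either end. Of the eligible bases, 42.2% lay between the ends over all pairs and 34.4% over the pairs with a member. The other 18 summits were 2 to 702 bp past an end, with a median of 50 bp. Within the gap, 133 of 208 summits (63.9%) were in the middle 50% of its width, and 4 equal parts from the minus-strand to the plus-strand end held 31, 60, 73 and 44 summits. The plus-strand end was nearer in 124 members, the minus-strand end in 101, and 1 was equally far from both.

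The median distance to the nearer 5′ end was 147.5 bp, with 41 members within 50 bp, 76 within 100 bp, 157 (69.5%) within 200 bp and 197 within 300 bp. By annotation, 190 summits (84.1%) were intergenic, against 73.1% of one-sided and 49.2% of distal summits. Of the rest, 16 were in exons of non-coding genes, 14 in untranslated exons and 5 in introns of coding genes, and 1 in coding sequence. The last member inside the window was C44B7.11/hrpl-1, at 991 bp from the farther end with a signal of 53.8, and the next was maa-1/C18D11.3 at 979 bp with 70.04. Just outside were hrg-9/srd-35 at 1002 bp and nep-26/mdt-22 at 1017 bp, the latter with a signal of 56.2.

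**Figure D5:**
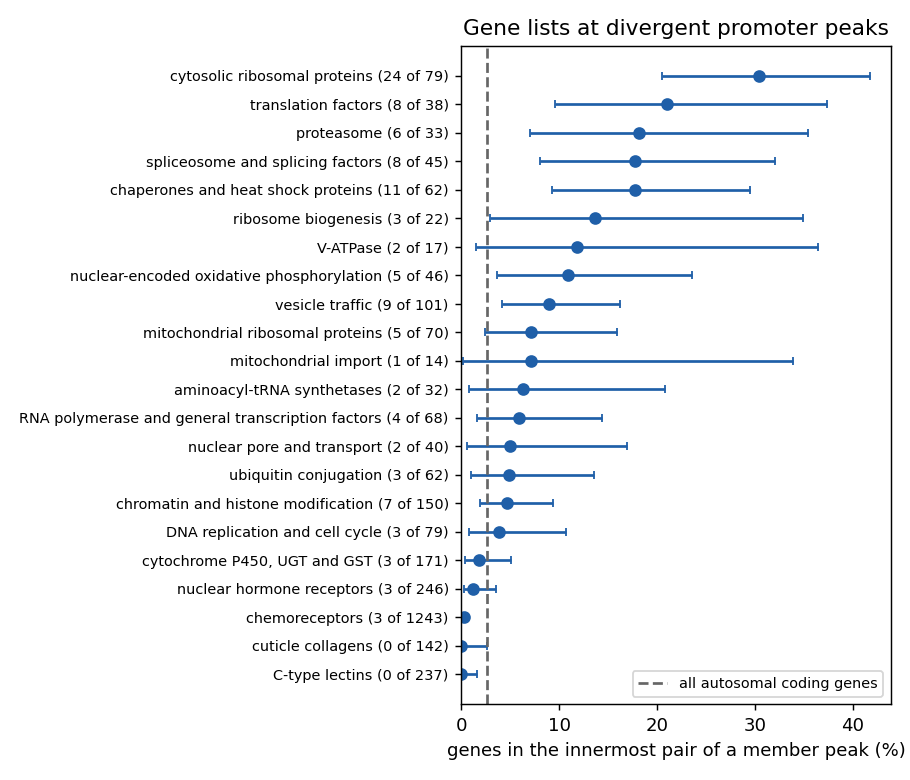
Percent of the autosomal genes of each of 22 lists that belonged to the innermost pair of a member (x axis), with exact 95% binomial intervals and counts beside the names. The dashed line is the 2.62% of all autosomal coding genes, and cytosolic ribosomal proteins lie highest at 30.4%.

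Cytosolic ribosomal proteins and, at the main settings, translation factors held the highest shares among the 22 gene lists. The lists were built from symbol patterns and miss genes under other symbols. Neighbouring genes can share a peak, which the intervals do not allow for. Of 17242 autosomal coding genes, 2.62% were in a member pair. Among cytosolic ribosomal protein genes 24 of 79 were (30.4%, 20.5 to 41.8), at 21 peaks, and these 24 were 49.0% of the 49 that had a divergent partner at all, against 9.47% of all paired genes. Translation factors followed with 8 of 38 (21.1%, 9.55 to 37.3), then the proteasome with 6 of 33 (18.2%, 6.98 to 35.5), splicing with 8 of 45 (17.8%, 8.0 to 32.1) and chaperones with 11 of 62 (17.7%, 9.20 to 29.5). Over genes with a divergent partner the shares of these lists were 36.4%, 27.3%, 29.6% and 34.4%, in that order. In the upper 50% of peaks by signal the proteasome share was 3.03% and the splicing share 2.22%, while ribosomal proteins had 21.5%. Of the members, 130 had no gene of any list, 80 had 1 and 16 had 2.

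The ribosomal protein peaks spanned most of the range of signals. Their median signal per gene was 89.2, from 265 at rpl-12 to 52.8 at rpl-1. In 8 of the 24 genes the summit was nearer the ribosomal gene than its partner, and 22 of the 24 had the peak among the 2622 strongest regions of both replicates. The 8 include rps-14, rpl-24.1 and rps-30, whose partner was also a ribosomal protein gene, so 1 of each pair had to be nearer. A pair of ribosomal protein genes shared 1 peak in 3 cases. The rps-14/rpl-36 peak on chromosome III had a signal of 89.2 and ranks of 753 and 215. The rps-10/rpl-24.1 peak had a signal of 71.3 and ranks of 886 and 763. The rpl-39/rps-30 peak had a signal of 54.4 and ranks of 1071 and 1951. All 3 signals were below those of the 6 strongest ribosomal protein peaks, none of which had a second ribosomal protein gene in its pair.

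Among translation factors, eef-1A.1, which delivers charged tRNAs during elongation, shared a peak of signal 119 with rfc-4, a clamp loader subunit of DNA replication, with ranks of 626 and 114. Among chaperones, cct-8 was joined by cct-1, cct-5 and cct-6 of the same chaperonin, with signals of 118, 82.2 and 83.8. The hsp-16.2/hsp-16.41 peak, by a pair of small heat shock genes, spanned positions 1804966 to 1805289 of chromosome V. It had a signal of 59.2 and ranks of 946 and 776 in a gap of 221 bp. The proteasome genes were rpn-2, rpn-3, rpn-6.1, rpt-2, pbs-1 and pas-4, and apart from rpn-3 their signals were 54.2 to 62.6. Splicing genes included prp-40 with a signal of 110, sap-140 with 65.6 and the SR protein pair rsp-2/rsp-1 with 55.5. The proteasome and splicing peaks were thus mostly weak members.

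Mitochondrial, trafficking and further housekeeping lists had shares of 6.25% to 13.6%. Vesicle traffic had 9 of 101 genes (8.91%, 4.16 to 16.2), led by sec-61.B, a subunit of the translocation channel of the endoplasmic reticulum, with 117, and the adaptin gene apb-1 with 101. Nuclear-encoded oxidative phosphorylation had 5 of 46 (10.9%, 3.62 to 23.6), among them atp-1 and atp-3, subunits of ATP synthase, with signals of 101 and 88.6. This list misses complex I genes under newer symbols, of which nduc-2 with 113, ndua-8 with 81.0, nduv-3 with 61.4 and ndub-8 with 49.9 were also in member pairs, found after their values were seen, so its count and share are incomplete. Mitochondrial ribosomal proteins had 5 of 70 (7.14%, 2.36 to 15.9), led by mrps-7 and mrpl-12 with 69.0 and 68.4. Ribosome biogenesis had 3 of 22, led by rbd-1 with 87.0 and nol-58 with 69.5. V-ATPase had 2 of 17, vha-8 and vha-1, with 64.7 and 55.1, and aminoacyl-tRNA synthetases 2 of 32, ears-2 and fars-1, with 84.8 and 69.8. Mitochondrial import had 1 of 14, timm-23 with 54.1. The intervals of vesicle traffic, oxidative phosphorylation and ribosome biogenesis lay above 2.62%, and those of the other lists in this paragraph included it. Only genes with a divergent partner can be in a member pair. Over those genes the shares were 9 of 49 (18.4%), 5 of 26 (19.2%) and 3 of 12 (25%), against 9.47% of all paired genes. These small counts were given no intervals, so their distance from that background was not assessed.

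Lists of nuclear regulators and of ubiquitin conjugation had shares of 3.80% to 5.88%. Chromatin genes had 7 of 150 (4.67%, 1.90 to 9.38), led by lin-53, a histone-binding protein, with 128 and the methyltransferase gene set-16 with 127. RNA polymerase and general transcription factors had 4 of 68, led by mdt-19 with 101 and taf-11.3 with 69.8. Replication and cell cycle had 3 of 79, led by rfc-4 and cdc-14 with 66.4. The list named ubiquitin conjugation had 3 of 62, led by ubq-2 with 94.2 and usp-14 with 55.1. It was set by symbols, so its name does not give the activity of each gene. Nuclear transport had 2 of 40, ran-5 with 88.8 and imb-1 with 66.0. Each of these intervals included the background. Counted only over genes with a divergent partner, chromatin had 7.87%, replication 8.11% and nuclear transport 8.0%, below the 9.47% of all paired genes, while RNA polymerase had 26.7% and ubiquitin conjugation 11.5%.

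Large families tied to environment or cuticle were at or below the background. Chemoreceptors had 3 of 1243 genes (0.241%, 0.0498 to 0.704), srw-7 with 213, sri-5 with 91.7 and srh-16. Of the chemoreceptor genes 272 had a divergent partner, so 1.10% of these were in a member pair, against 9.47% of all paired genes. Nuclear hormone receptors had 3 of 246, led by nhr-47 with 98.7 and nhr-142 with 96.6, and detoxification enzymes 3 of 171, led by ugt-12 with 71.0 and cyp-33C6 with 51.0. Cuticle collagens had 0 of 142 (up to 2.56%) and C-type lectins 0 of 237 (up to 1.54%), the upper exact bounds. Only the intervals of chemoreceptors, collagens and lectins lay wholly below 2.62%.

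Sequence at the summits was richer in G and C than the middle of divergent pairs without a member, some of which had weaker regions or peaks that missed the rule. In 100-base windows the median GC content was 46% at member summits, 45% at one-sided and 46% at distal summits, and 33% at the midpoints of 2156 pairs without a member. In 300-base windows it was 35.7%, 37.0%, 42.3% and 33.3%. The 3 peak classes thus had medians within 1 point of each other over 100 bases, and the members had the lowest median of the 3 over 300 bases. In steps along the members the mean GC content was 51.7% just to the right of the summit, 28.8% at 130 bp to the right and 28.6% at 130 bp to the left, so that the GC-rich centre had AT-rich flanks.

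Short words with known names were counted on both strands in the 300-base windows, beside the midpoints of all 2382 pairs. The TATA word TATAAA stood in 31.9% of members, 28.2% of one-sided peaks, 19.7% of distal peaks and 37.1% of midpoints. The GC box CCGCCC stood in 12.4% of members, 10.4% of one-sided peaks, 14.7% of distal peaks and 6.97% of midpoints, so it was not particular to the members. The word GCGTCTC stood in 11.5% of members, 16% of one-sided peaks, 22.1% of distal peaks and 4.24% of midpoints, and the word GAGAGA in 25.7%, 40.2%, 54.8% and 17.9%. Both of these words thus had their lowest share of the 3 peak classes in the members. The word GAANNTTC, an inverted pair of heat shock element repeats, stood in 23.5%, 15.8%, 9.03% and 20.4%, the highest in the members but near the midpoints' own share. GC content differs between these classes, and its part in the shares was not tested.

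Words of 10 bases in 150-base windows were taken where their share in members most exceeded that at midpoints of pairs without a member. The choice thus favoured high shares in members and low ones at these midpoints, so both are a description only. Of 6 such words at least 1 stood in 61 members (27%), in 17.8% of one-sided and 17.1% of distal peaks and in 5.01% of midpoints of pairs without a member. ACTCCTCTCG stood in 13 members (5.75%), 12 one-sided (2.71%) and 2 distal peaks (0.669%) and 9 midpoints (0.417%). AAACGCGCCA stood in 13 members (5.75%), 11 one-sided (2.48%) and 0 distal peaks and 5 midpoints (0.232%), at a median of 10 bp from the member summits. GGGTCTCGCA stood in 10 members (4.42%), 4 one-sided (0.903%) and 2 distal peaks (0.669%) and 9 midpoints (0.417%). CGTAAATCGA, marked by its reverse complement TCGATTTACG in the rpl-20/Y17G9B.5 sequence, had 10 (4.42%), 4 (0.903%), 1 (0.334%) and 10 (0.464%). GAGACGCAGA went the other way among the peak classes, with 12 members (5.31%), 37 one-sided (8.35%) and 44 distal peaks (14.7%), beside 20 midpoints (0.928%). Its reverse complement TCTGCGTCTC contains the named word GCGTCTC, so the counts of these words are not separate observations. The A-rich word AAAAAATAAA, in 15 members (6.64%), also stood in 58 midpoints (2.69%).

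The stretches around ACTCCTCTCG and GGGTCTCGCA are shown because they let the bases beside each word be compared between members; the word is in capitals and each stretch is written on the strand that carries it. Shown are members with the word, in the order of their signals. For ACTCCTCTCG these are the strongest members with the word. For GGGTCTCGCA some members with stronger signals than those printed are not shown. For ACTCCTCTCG the regions are chrIII:10848973-10849022 on the minus strand, chrIII:10218785-10218834 on the plus strand, chrIV:10483908-10483957 on the plus strand and chrV:13556810-13556859 on the minus strand. For GGGTCTCGCA they are chrIII:8447143-8447192 on the minus strand, chrIII:2528782-2528831 and chrV:4827132-4827181 on the plus strand and chrV:7776294-7776343 on the minus strand.
fbxb-85/hex-3: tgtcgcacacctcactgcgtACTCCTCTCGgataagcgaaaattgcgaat
rde-4/cox-14: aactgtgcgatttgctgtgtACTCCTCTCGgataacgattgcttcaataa
F01D4.5/ced-5: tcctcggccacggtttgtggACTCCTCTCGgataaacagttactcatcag
C56A3.6/cav-2: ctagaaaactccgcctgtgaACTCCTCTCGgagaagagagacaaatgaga
hsp-110/rpn-3: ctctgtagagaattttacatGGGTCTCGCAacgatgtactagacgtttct
rbc-2/ndua-8: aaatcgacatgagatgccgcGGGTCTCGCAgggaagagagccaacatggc
hsp-6/C37H5.5: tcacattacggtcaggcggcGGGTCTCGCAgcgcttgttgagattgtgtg
rpl-39/rps-30: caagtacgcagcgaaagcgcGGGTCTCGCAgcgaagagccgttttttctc

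The letters gataa follow ACTCCTCTCG in the stretches by fbxb-85/hex-3, rde-4/cox-14 and F01D4.5/ced-5 and not in that by C56A3.6/cav-2. Signals in these 4 members were 142, 86.6, 77.4 and 69.9. Beside GGGTCTCGCA the letters gc stand before and g after the word in the stretches by rbc-2/ndua-8, hsp-6/C37H5.5 and rpl-39/rps-30 and not in that by hsp-110/rpn-3, and the signals were 147, 81.0, 56.6 and 54.4. Over all 10 members with GGGTCTCGCA the signals ran from 53.3 to 147, with a median of 61.7 against 69.7 for all members. The word stood by hsp-110/rpn-3, with a chaperone and a proteasome gene, by hsp-6, which encodes a mitochondrial Hsp70, and by the ribosomal pair rpl-39/rps-30. These were picked from the 10 members with the word, which also included lin-53/nra-2 and rbc-2/ndua-8. ACTCCTCTCG lay at a median of 26 bp from the summit and GGGTCTCGCA at 14.5 bp.

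Small RNA genes were uncommon near the members. The 5′ end of a tRNA gene lay within 1000 bp of 4 member summits (1.77%), against 4.29% of one-sided and 9.03% of distal summits. That of a snoRNA gene lay as near to 13 (5.75%), against 7.67% and 12.4%. Among the named members, rps-23/dpm-3, rpl-15/K11H12.8 and ska-3/rps-12 had 1 or 2 snoRNA genes within that distance, and their part in these peaks was not tested.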

How the data were processed

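ChIP-seq peak lists of 2 biological replicates of 1 group were used. Per the deposited notes, the authors made a list of 30000 regions for each replicate and for the pooled replicates, and an IDR list from these. Signal, as deposited, is on the caller's own scale and was compared within 1 list at a time. The −log10 q-value that the authors deposited was 2.11 at every IDR peak and could not rank peaks, so signal was used. Which caller and aligner were run, and the IDR cutoff, is not given in the sources used. Depth per replicate is unknown, since the lists hold no read numbers. Lists on build ce10 were not used.

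Genes came from Ensembl release 115 and sequence from the RefSeq copy of WBcel235, which is build ce11. The start of the summit base was column 2 plus column 10 of the list, counted from 0. The innermost pair of a member had the smallest summed distance to its summit. Pairs counted as background were adjacent coding genes with 5′ ends at most 2000 bp apart. A replicate held a peak if a region overlapped it by at least 1 bp. Intervals are exact at 95%, and no p-value was computed, because 1 group without controls gives no contrast between samples.

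Members, gene lists and words were chosen with earlier results of these data known. Named were the pairs of the 15 strongest members overlapping the 2622 strongest regions of both replicates, up to 2 genes of highest signal per list, and further genes picked after their values were seen: the heme genes, complex I genes, pairs with both genes in a list, other members of small lists, rpl-1, and genes in word stretches. Alternatives were other windows, all transcripts, stronger peaks, each interval once, summits between the ends only, other overlaps, shorter sequence windows, and each replicate alone. Alternatives for recurring words were added after seeing the data. The classification and the word count were tested on simulated data. Software was Python 3.11.15 with matplotlib 3.10.9, scipy 1.17.1, pandas 2.3.3 and numpy 2.4.6.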

Additional observations from a re-analysis of the deposited data

How the results depend on the processing

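The number of members, the member share, the median gap, the median distance to the nearer end and the share of pairs with a summit moved little when all coding transcripts gave 5′ ends or when either replicate's 1311 strongest regions replaced the IDR list. Without 1 replicate the number of members was 211 to 228, the member share 22.35% to 22.85%, the median gap 468 to 486 bp, the distance to the nearer end 152.5 to 163 bp, the share of pairs 8.648% to 9.446%, the share of summits between the ends 87.2% to 91.67% and the median GC content 34% to 37.33%. Agreement of both replicates has no such value, and replicate signals are on another scale. With a 500 bp window the member share was 16.53% and the median gap 388.5 bp. With a 2000 bp window these were 33.16% and 624 bp, the summit was between the ends in 86.6%, and the nearer end was at 175 bp. These windows admit narrower or wider gaps by construction. In the upper 50% of peaks by signal there were 124 members, 26.61% of autosomal peaks, with a median signal of 88.52 against 87.69 for one-sided peaks, 83.06% in both replicates and 5.206% of pairs. Over all settings, replicates alone included, the median signal of members was 1.009 to 1.07 times that of one-sided peaks. The share of members in both replicates was 81.86% with 2622 regions and 37.17% with a reciprocal overlap of 50%. In 100-base windows the median GC content was 46%, and 10 of 11 named words moved. Counting each interval once could change nothing, since no members share an interval. Of the values of gene lists under the other settings, 124 stayed within the main interval and 8 moved. In the upper 50%, the proteasome share was 3.03% and the splicing share 2.222%. Without replicate 2 the recurring words stood in 20.85% of members. No paired analysis was possible because there was 1 group. Unknown depth limits how far a peak missing in 1 replicate can be read.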

Other observations

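Chromosome X had 10 peaks that met the same rule, which were not members. They lay in 10 of 178 divergent pairs (5.62%, exact 95% interval 2.73 to 10.1), and the interval included the 9.49% of the autosomes. Bases that met the rule made up 0.917% of X, against 3.54% of the autosomes, and held 61.5 peaks per Mb (29.5 to 113). Their median signal was 73.8, and the strongest, by R193.2/R193.6, had a signal of 324 and ranked 22 in replicate 1 and 33 in replicate 2. Of the 10, 8 were among the 1311 strongest regions of both replicates (80%, 44.4 to 97.5). The sec-15/C28G1.2 peak, by a subunit of the exocyst, followed with a signal of 140 and ranks of 94 and 181. The trap-2/ile-2 peak had a signal of 85.9 and ranks of 230 and 665.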
